A study of Mus musculus with 20 samples.

Results

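The 7 genes described here encode enzymes of cholesterol synthesis: Hmgcs1, Idi1, Fdps, Fdft1, Sqle, Lss and Cyp51. They were chosen by name, and each gene was read from the array feature that carries its symbol alone and has the highest mean over all arrays. By that rule 6 of the 7 were measured, out of 22180 genes in all, and each of the 6 had exactly 1 such feature. Idi1, the isopentenyl diphosphate isomerase, is not analysed here because its only feature also carries the symbol Gm13502. Although the genes had been grouped under synthesis and uptake, none of the 7 encodes a protein of cholesterol uptake, so they are called cholesterol synthesis genes below.

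Gene expression was measured on 20 Affymetrix arrays, 1 for the abdominal skin of each of 20 C57/B6 mice aged 9 weeks. The mice were fed a control chow diet (CD) or a high fat diet (HFD). Their shaved abdomen was given a daily dose of 62.5 mg of imiquimod cream (IMQ; Aldara, 5%) or of vehicle for 5 days, and skin was taken 24 h later. Each of the 4 combinations of diet and cream held 5 mice. They are written CD-vehicle and CD-IMQ for chow and, for the high fat diet, HFD-vehicle and HFD-IMQ, with mice numbered 1 to 5 as in the labels, and shaving was common to all of them. Imiquimod is an agonist of Toll-like receptor 7, and its repeated application is used to model psoriasis-like skin inflammation. RNA was measured in bulk skin, in which the cells that carry a transcript are not resolved.

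Animal cells build cholesterol from acetyl-CoA. The mevalonate arm makes farnesyl diphosphate, which squalene synthase commits to sterols, and the post-squalene arm closes and trims the sterol rings. When sterols in the endoplasmic reticulum fall, the transcription factor SREBF2 is released from its escort and anchor proteins and activates most genes of the pathway together. In skin, keratinocytes use cholesterol for the lamellar lipids of the barrier, and sebaceous glands make squalene and sterols for sebum.

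These genes are known as targets of a shared regulatory system, so the sequence before the start site is shown for the measured members that have an entry in the RefSeq promoter table. These were 3, Hmgcs1, Lss and Cyp51. Idi1 has an entry too but no measured value, and Sqle, Fdps and Fdft1 have none. Each sequence is the 250 bases before the RefSeq start in build GRCm38.p6, written 5′ to 3′ on the strand of the gene, with 3 motifs in capitals. The motifs were CACNCCAC, a core form of the sterol regulatory element, CCAAT, bound by nuclear factor Y, and GGGCGG, bound by Sp1, each searched on both strands. The Hmgcs1 window is chr13:119690101-119690350 on the plus strand, that of Lss chr10:76531355-76531604 on the plus strand, and that of Cyp51 chr5:4104698-4104947 on the minus strand.
Hmgcs1: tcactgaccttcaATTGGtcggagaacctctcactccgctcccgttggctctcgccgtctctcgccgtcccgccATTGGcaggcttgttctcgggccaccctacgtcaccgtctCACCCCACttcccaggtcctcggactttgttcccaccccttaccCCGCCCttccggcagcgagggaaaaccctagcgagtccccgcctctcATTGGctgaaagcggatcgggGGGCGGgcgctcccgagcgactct
Lss: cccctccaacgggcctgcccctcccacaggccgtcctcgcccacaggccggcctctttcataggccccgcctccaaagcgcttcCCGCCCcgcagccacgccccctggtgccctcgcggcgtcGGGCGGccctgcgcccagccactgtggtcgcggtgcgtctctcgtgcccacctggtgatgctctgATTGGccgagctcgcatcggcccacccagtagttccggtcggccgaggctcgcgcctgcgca
Cyp51: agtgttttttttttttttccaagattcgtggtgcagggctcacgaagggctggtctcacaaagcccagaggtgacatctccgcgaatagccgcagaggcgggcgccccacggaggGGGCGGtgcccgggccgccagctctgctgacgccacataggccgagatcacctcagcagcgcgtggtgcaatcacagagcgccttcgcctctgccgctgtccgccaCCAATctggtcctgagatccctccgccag
The Hmgcs1 window held 1 match to CACNCCAC, whose first base lay 136 bases before the start, with 3 matches to CCAAT and 2 to GGGCGG. Lss held 1 CCAAT and 2 GGGCGG, and Cyp51 held 1 CCAAT and 1 GGGCGG, with no match to CACNCCAC in either window. Among all 32851 windows of this length in the table, 5.29% held CACNCCAC, 33.8% held CCAAT and 32.7% held GGGCGG. A match is a description of the letters, not a binding site.

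Values are log2 expression after robust multi-array averaging (RMA), so a difference of 1 is a doubling, and the median over features was 2.86 to 3.04 in each array. Levels are not compared between genes, because features differ in how they hybridise. Groups were compared with limma over all 20 arrays, and a gene was called at an adjusted p below 0.05 over all 22180 genes. Changes are given with their standard error and group means with their SD (n = 5 mice). Marker lists were read beside the tissue label as a rough guide only, since levels of different features are not compared. The mean level of 5 basal keratinocyte markers ran from 5.92 to 6.76 in CD-vehicle, 6.61 to 7.13 in CD-IMQ, 6.45 to 7.42 in HFD-vehicle and 6.44 to 7.03 in HFD-IMQ, and that of 4 hepatocyte markers was 3.45 or less in every array. The mean of 6 skeletal muscle markers varied between arrays, from 6.47 in HFD-IMQ 3 to 9.45 in CD-vehicle 5.

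Some arrays stood apart. CD-vehicle 3 had the lowest value of its group for 6 of 6 measured members, and it held 28.4% of the summed squared distance of its group to the group mean over all genes, the largest share in that group. Its mean over 8 sebaceous gland markers was 6.15, against 7.26 to 8.05 in the other CD-vehicle arrays, and its mean over 8 hair shaft and inner root sheath markers was 2.80, against 4.52 to 5.65. The members' results are therefore also given without it. HFD-vehicle 3 held 42.8% of the squared distance of its group and had the highest hair marker mean of all arrays, 9.54, and HFD-IMQ 4 held 30.0%. Leaving out HFD-vehicle 3 made no member pass or lose the threshold in any comparison.

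Hmgcs1 encodes the cytosolic HMG-CoA synthase, the enzyme that condenses acetoacetyl-CoA with acetyl-CoA at the head of the mevalonate arm. Its log2 values in mice 1 to 5 were 8.09, 8.38, 7.67, 8.32 and 8.33 in CD-vehicle and 8.70, 7.98, 8.29, 8.19 and 7.77 in CD-IMQ. In HFD-fed mice they were 8.61, 8.69, 8.61, 8.42 and 8.30 with vehicle and 7.98, 8.07, 7.79, 8.28 and 8.18 with IMQ. Both CD groups spanned much of the range, whereas the 5 HFD-vehicle values all lay above the 5 HFD-IMQ values, by a margin of 8.30 against 8.28 at the nearest. The group means were 8.16 ± 0.30, 8.19 ± 0.35, 8.52 ± 0.16 and 8.06 ± 0.19 in the order above. The difference between IMQ and vehicle was -0.46 ± 0.16 in HFD (95% interval -0.79 to -0.14, unadjusted p = 0.00702), 1.38-fold lower, and missed the threshold over all genes (adjusted p = 0.0914). In CD it was 0.03 ± 0.16 (adjusted p = 0.942).

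Fdps encodes farnesyl diphosphate synthase, which joins the isoprene units made by the mevalonate arm. It read 5.73, 6.46, 5.62, 6.43 and 6.42 in CD-vehicle and 6.73, 6.49, 6.69, 6.25 and 6.57 in CD-IMQ. The corresponding values were 6.53, 6.38, 6.74, 5.92 and 5.57 in HFD-vehicle and 6.28, 6.38, 6.10, 6.25 and 6.33 in HFD-IMQ. Vehicle-treated skin was scattered under both diets, with CD-vehicle 1 and 3 and HFD-vehicle 4 and 5 low, and the IMQ groups were tighter, with no array below 6.10. Group means ran from 6.13 ± 0.42 in CD-vehicle to 6.54 ± 0.19 in CD-IMQ, with 6.23 ± 0.48 in HFD-vehicle and 6.27 ± 0.11 in HFD-IMQ. In CD the IMQ difference was 0.41 (interval 0.01 to 0.81, adjusted p = 0.196), and in HFD it was 0.04 (interval -0.36 to 0.44).

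Fdft1 encodes squalene synthase, the first enzyme committed to sterols. Its values were 6.43, 6.95, 5.75, 6.83 and 6.63 in CD-vehicle, 6.78, 7.04, 6.80, 6.55 and 6.48 in CD-IMQ, 6.86, 6.71, 6.96, 6.44 and 6.25 in HFD-vehicle and 6.49, 6.49, 6.43, 7.07 and 6.37 in HFD-IMQ. The lowest of all 20 was CD-vehicle 3, and HFD-IMQ 4 stood well above the other HFD-IMQ arrays. All 4 groups overlapped, with means of 6.52 ± 0.47, 6.73 ± 0.22, 6.64 ± 0.30 and 6.57 ± 0.28. None of its 5 contrasts had an unadjusted p below 0.05, and the largest of the 4 group differences was 0.21 for IMQ in CD (interval -0.18 to 0.61).

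Sqle encodes squalene epoxidase, which adds oxygen to squalene and is a rate-limiting step of the post-squalene arm. It was the only member that was called in any comparison. Its values were 6.09, 6.13, 5.32, 6.48 and 6.08 in CD-vehicle and 7.004, 6.45, 6.85, 6.68 and 6.26 in CD-IMQ. HFD-vehicle read 6.58, 6.72, 6.91, 6.58 and 6.06, and HFD-IMQ read 6.72, 6.71, 6.47, 6.33 and 7.02. The CD-vehicle mean, 6.02 ± 0.43, was below those of CD-IMQ, 6.65 ± 0.30, HFD-vehicle, 6.57 ± 0.32, and HFD-IMQ, 6.65 ± 0.26, although CD-vehicle 4 at 6.48 lay above the lowest arrays of each. Sqle rose by 0.63 ± 0.19 with IMQ in CD, 1.55-fold (interval 1.18 to 2.04, adjusted p = 0.0358). In HFD the IMQ difference was 0.08 (interval -0.31 to 0.48, adjusted p = 0.90), and the HFD-vehicle mean was 0.55 ± 0.19 above the CD-vehicle mean (unadjusted p = 0.00878, adjusted p = 0.146).

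The call for Sqle rested on small margins. It passed in 14 of 20 fits that each left out 1 array, with a change between 0.45 and 0.74. It was lost without CD-vehicle 3 (0.45, adjusted p = 0.115), CD-IMQ 1 (adjusted p = 0.0891), CD-IMQ 3 (adjusted p = 0.0843), CD-IMQ 4 (adjusted p = 0.0719), CD-vehicle 5 (adjusted p = 0.0562) and CD-vehicle 1 (adjusted p = 0.0557). A fit of the 2 CD groups alone gave an adjusted p of 0.0541.

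Lss encodes lanosterol synthase, which folds oxidised squalene into the first sterol. It read 5.47, 5.27, 4.75, 5.59 and 5.68 in CD-vehicle and 5.85, 5.16, 5.17, 5.33 and 5.01 in CD-IMQ. With HFD it read 5.61, 5.81, 5.38, 4.999 and 5.07 under vehicle and 4.83, 5.19, 4.02, 5.08 and 5.01 under IMQ. HFD-IMQ 3, at 4.02, was the lowest of all arrays, and the other HFD-IMQ values reached into the range of every other group. Mean levels were 5.35 ± 0.37, 5.30 ± 0.32, 5.37 ± 0.34 and 4.83 ± 0.47. The HFD-IMQ mean was 0.55 ± 0.22 below that of HFD-vehicle (difference -0.55, interval -0.995 to -0.10, unadjusted p = 0.0191, adjusted p = 0.172). It differed from that of CD-IMQ by -0.48 (interval -0.92 to -0.03, unadjusted p = 0.0383, adjusted p = 0.451).

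Cyp51 encodes lanosterol demethylase, a cytochrome P450 that removes a methyl group from the sterol nucleus. Its values were 6.99, 7.31, 5.94, 7.37 and 7.48 in CD-vehicle and 7.83, 6.85, 7.42, 7.20 and 6.76 in CD-IMQ. In HFD they were 7.76, 7.54, 7.22, 7.42 and 7.03 with vehicle and 6.74, 6.92, 6.42, 6.88 and 6.89 with IMQ. Every HFD-vehicle value was above every HFD-IMQ value, the nearest being 7.03 and 6.92, while the CD groups overlapped with each other and with both HFD groups. The means were 7.02 ± 0.63 in CD-vehicle, 7.21 ± 0.44 in CD-IMQ, 7.40 ± 0.28 in HFD-vehicle and 6.77 ± 0.21 in HFD-IMQ. With IMQ in HFD the difference was -0.63 ± 0.24, 1.55-fold lower (interval -1.12 to -0.14, unadjusted p = 0.0145), with an adjusted p of 0.145 over all genes. Without CD-vehicle 3, which enters that test only through the shared estimate of the spread, the adjusted p was 0.0343. In CD the difference was 0.19 (interval -0.30 to 0.69).

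**Figure D1:**
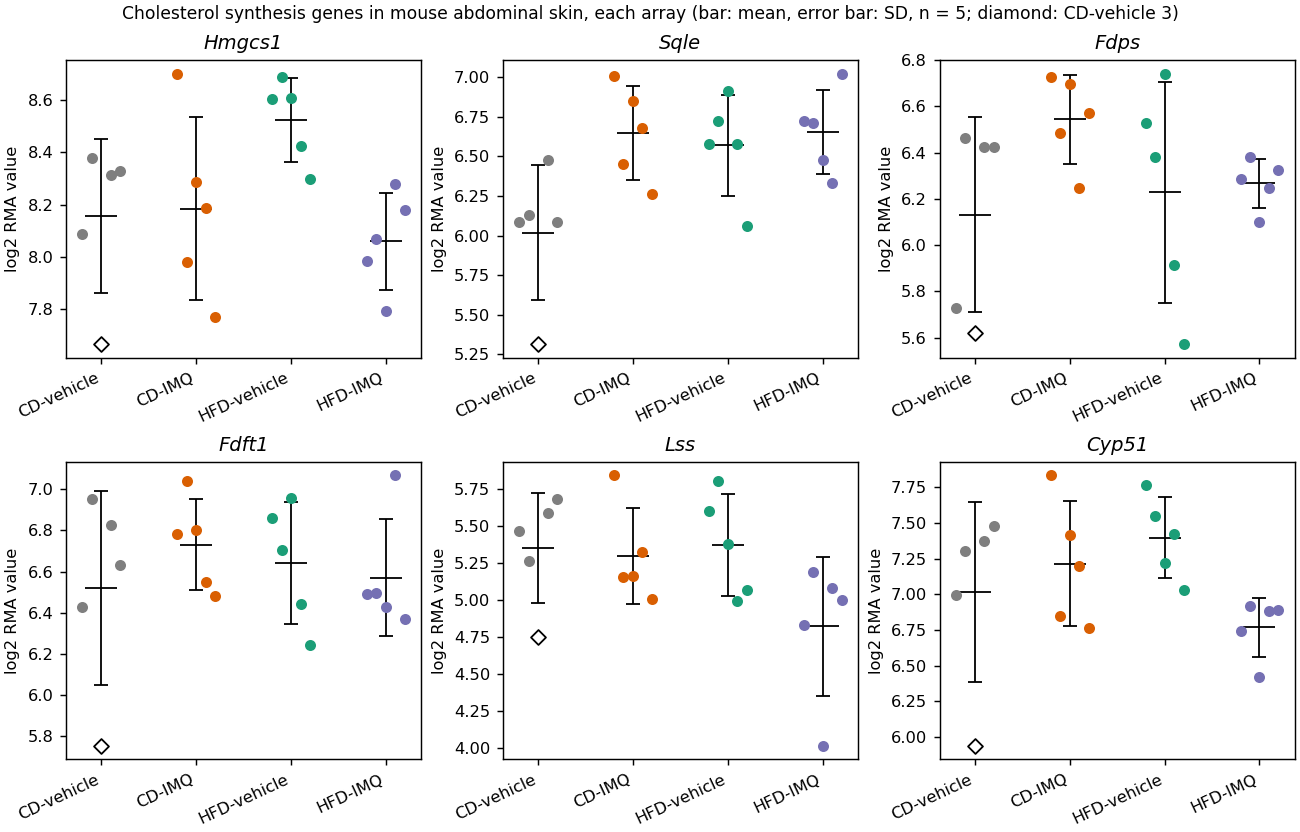
Log2 RMA value (y axis) of the 6 measured cholesterol synthesis genes in each of 20 arrays, by group (x axis); bars are means, error bars SD (n = 5), and the open diamond is CD-vehicle 3. CD-vehicle 3 is the lowest CD-vehicle array in all 6 panels, and the HFD-vehicle and HFD-IMQ points are apart only for Hmgcs1 and Cyp51.

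Ordered by group mean, neighbouring groups overlapped for every member. The highest mean was in CD-IMQ for Fdps and Fdft1, in HFD-vehicle for Hmgcs1, Lss and Cyp51, and in HFD-IMQ for Sqle, where it differed from CD-IMQ by 0.00 (interval -0.39 to 0.40). The lowest mean was in CD-vehicle for Sqle, Fdps and Fdft1 and in HFD-IMQ for Hmgcs1, Lss and Cyp51.

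IMQ was compared with vehicle in chow-fed mice first. Of the 6 members 1, Sqle, was called higher and 0 lower, against 2424 of 22180 genes called in either direction (10.9%). At an unadjusted p below 0.05 the count was 2 of 6, Sqle and Fdps, where 23.6% of all genes had such a p. No member had groups that did not overlap (8.89% of all genes). The members' median change was 0.20, with 5 of 6 above 0, beside a median of 0.02 over all genes. Without CD-vehicle 3 the members' median was -0.027, with 3 of 6 below 0 and 0 called.

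In HFD-fed mice, IMQ gave 0 of 6 members called by limma, against 5.89% of all genes (1306). There were 3 members with an unadjusted p below 0.05, Hmgcs1, Lss and Cyp51, all lower, where 16.7% of all genes had such a p. The groups did not overlap for 2 of 6, Hmgcs1 and Cyp51, against 6.06% of all genes. The median change of the members was -0.27, with 4 of 6 below 0, beside -0.00067 over all genes. The members are not independent of each other. In a fit of the 2 HFD groups alone, Hmgcs1 (adjusted p = 0.0408) and Cyp51 (adjusted p = 0.0264) fell, and after a further quantile normalisation Hmgcs1 fell by 0.54 (adjusted p = 0.0245).

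Diet was compared within each cream. In vehicle-treated skin 0 of 6 members were called by limma (2.18% of all genes, 483, were), 2 of 6 had an unadjusted p below 0.05, Hmgcs1 and Sqle (14.7% of all genes), and 0 had groups that did not overlap (3.94%). All 6 differences between HFD and CD were above 0, with a median of 0.25 beside -0.0080 over all genes. Without CD-vehicle 3 their median was 0.039 and 3 of 6 were below 0. In IMQ-treated skin 0 of 6 members and 0 of 22180 genes were called (0.0%). At an unadjusted p below 0.05 there was 1 member, Lss, and 10.3% of all genes, and 0 members had groups that did not overlap (1.67% of all genes). The median there was -0.22, with 5 of 6 below 0, beside -0.0010 over all genes.

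The interaction asks whether the IMQ difference was the same in both diets, as the difference in HFD minus that in CD. It was called for 0 of 6 members by limma, against 0.663% of all genes (147), and had an unadjusted p below 0.05 for 2 of 6, Hmgcs1 and Cyp51, where 15.9% of all genes did. Hmgcs1 had a term of -0.49 (interval -0.95 to -0.04, adjusted p = 0.278). For Cyp51 the term was -0.82 (interval -1.52 to -0.13, adjusted p = 0.229), and for Sqle it was -0.55 (interval -1.11 to 0.02, adjusted p = 0.331). The terms of Fdps, -0.37, Fdft1, -0.28, and Lss, -0.50, had intervals that include 0. All 6 terms were below 0, with a median of -0.50, and without CD-vehicle 3 all 6 were still below 0 with a median of -0.36 and 0 called. So the call of Sqle in CD and its absence in HFD do not show that the response differed between diets. The CD-vehicle arrays enter the interaction, the IMQ comparison in CD and the diet comparison under vehicle, so these results share samples.

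**Figure D2:**
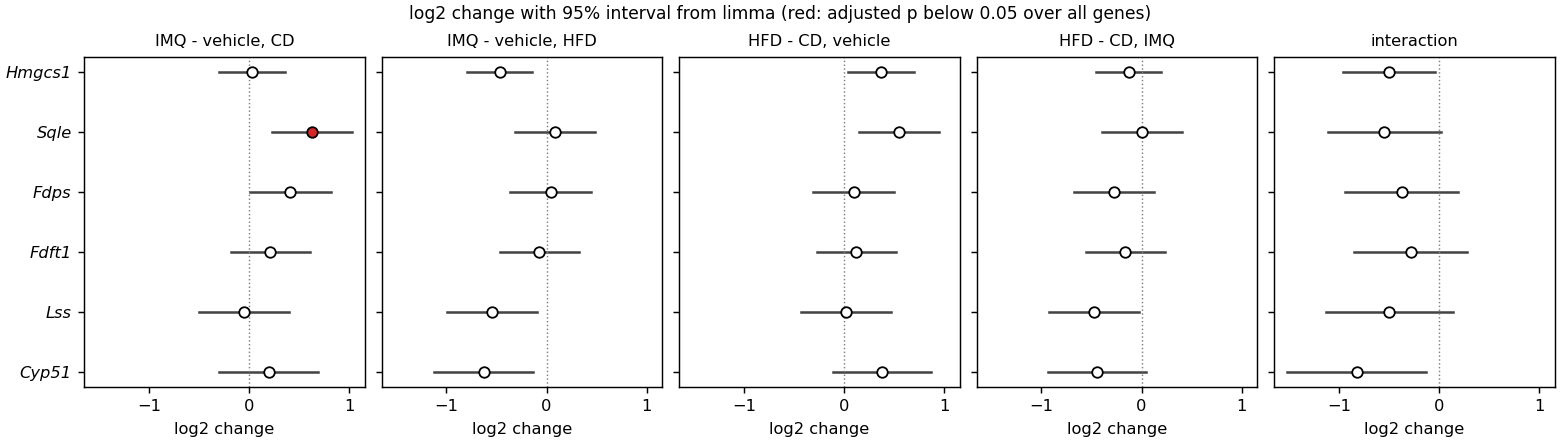
Log2 change (x axis) of each measured member (y axis) in the 4 group comparisons and the interaction, as limma estimate with its 95% interval; filled red marks an adjusted p below 0.05 over all genes. Only Sqle with IMQ in CD, at 0.63, is filled, and all 6 interaction terms lie left of 0.

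Within groups the members varied together across mice. Over the 20 arrays the Pearson correlation of 15 pairs of members ran from 0.22 to 0.90 with a median of 0.53, and from 0.51 to 0.91 with a median of 0.66 once each group's mean was subtracted. Hmgcs1 and Cyp51 were the most alike pair (r = 0.90, Spearman's rho = 0.91), and Sqle and Lss the least (r = 0.22, rho = 0.19). Without CD-vehicle 3, and with group means kept, the range over pairs was 0.069 to 0.88, with a median of 0.35. The correlations with group means subtracted were not computed without CD-vehicle 3, which was the lowest of its group for 6 of 6 members. Points of these correlations share the array, its RNA and its normalisation, and they are given as descriptions. Other arrays at the ends were CD-IMQ 5 and HFD-vehicle 5, each lowest of their group for 5 of 6 members, HFD-IMQ 3, lowest for 4, and CD-IMQ 1, highest for 5.

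The other measured genes of the mevalonate arm were Mvk, Pmvk, Mvd, Idi2 and Ggps1, 5 of 7 listed. With IMQ in CD 0 rose and 1 fell. The gene that fell was Ggps1, whose enzyme makes geranylgeranyl diphosphate, a branch away from sterols. Its mean went from 5.84 ± 0.20 in CD-vehicle to 5.24 ± 0.25 in CD-IMQ with no overlap (change -0.60 ± 0.12, adjusted p = 0.00172). None of the 5 was called by limma in the other 4 contrasts, where 1, 1, 2 and 2 of 5 had an unadjusted p below 0.05 for IMQ in HFD, diet under vehicle, diet under IMQ and the interaction. The median change of the 5 was 0.13 for IMQ in CD and -0.088 for IMQ in HFD.

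Of the post-squalene arm, 8 further genes of 9 listed were measured: Tm7sf2, Lbr, Msmo1, Nsdhl, Hsd17b7, Ebp, Sc5d and Dhcr7. IMQ in CD raised 1, Ebp, the sterol isomerase, from 6.19 ± 0.15 to 6.66 ± 0.09 with no overlap (0.47 ± 0.11, adjusted p = 0.00645). IMQ in HFD lowered 2 and raised 0. Msmo1, the sterol methyl oxidase that acts after Cyp51, went from 7.45 ± 0.19 in HFD-vehicle to 6.65 ± 0.20 in HFD-IMQ with no overlap, a fall by 0.80 on the log2 scale or 1.74-fold lower (adjusted p = 0.00853). Its call held in 20 of 20 fits that left out 1 array. Lbr, a sterol reductase that also anchors chromatin to the nuclear lamina, went from 6.82 ± 0.43 to 6.20 ± 0.10 (-0.63 ± 0.19, adjusted p = 0.0472). That call held in only 6 of 20 such fits, those without CD-vehicle 2, 3 or 5, CD-IMQ 4 or HFD-vehicle 4 or 5, and the adjusted p reached 0.143 in the rest. It was also lost with arrays centred on their medians and with only the groups compared (adjusted p up to 0.0744). Hsd17b7, a sterol keto reductase, had groups that did not overlap in HFD but missed the threshold (-0.81 ± 0.25, adjusted p = 0.0633).

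Taking the members with these 13 others, 19 synthesis genes were measured. IMQ in CD gave 2 higher, Sqle and Ebp, and 1 lower, Ggps1, 3 of 19 where 10.9% of all genes were called, with a median change of 0.18. IMQ in HFD gave 0 higher and 2 lower, Msmo1 and Lbr, 2 of 19 where 5.89% of all genes were called, with a median of -0.088. With so few genes these shares are coarse. Both diet comparisons and the interaction gave 0 calls by limma, and the interaction term was below 0 in 17 of 19, with a median of -0.49, beside 50.1% of all genes below 0. The 19 terms are not independent, because the members varied together and all terms use the same CD-vehicle arrays. Correlations between single genes were not computed for the 13 others. No count without CD-vehicle 3 was made for the 19. For Msmo1 the interaction term was -0.69 (adjusted p = 0.197) and for Hsd17b7 -1.04 (adjusted p = 0.147).

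The sensing machinery comprised 8 measured genes of 9 listed, among them Srebf2, the sterol-responsive transcription factor. Srebf2 itself was not called: its IMQ difference was 0.18 in CD and -0.33 in HFD (adjusted p = 0.289), and its interaction term -0.51 (adjusted p = 0.253). Insig1 was not called either, with an IMQ difference of -0.69 in CD (adjusted p = 0.131) and -0.52 in HFD (adjusted p = 0.383). For diet under vehicle it differed by -0.63 (adjusted p = 0.296), and its interaction term was 0.17 (adjusted p = 0.884). The median of the 8 genes was -0.20 for IMQ in CD and -0.17 in HFD. In the interaction the median was 0.013, with 4 of 8 terms below 0. Insig2, which holds the SREBP escort complex in the endoplasmic reticulum, fell with IMQ in HFD from 6.09 ± 0.38 to 5.16 ± 0.41 with no overlap (-0.94 ± 0.20, adjusted p = 0.00436). In CD it differed by -0.34 (adjusted p = 0.317), and the interaction term of -0.60 had an adjusted p of 0.302. Rnf139, a ubiquitin ligase of the same membrane, fell with IMQ in CD from 6.60 ± 0.19 to 6.21 ± 0.19 (-0.39 ± 0.11, adjusted p = 0.0295). That call was lost without any 1 of CD-vehicle 1, 3, 4 or 5 or CD-IMQ 2, 4 or 5 (adjusted p up to 0.0861), and also after a further quantile normalisation and with only the groups compared (up to 0.0742).

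Uptake and intracellular transport were followed through 8 measured genes of 10 listed. Lipa, the lysosomal lipase that frees cholesterol from lipoprotein esters, rose with IMQ in both diets, from 6.85 ± 0.28 to 7.50 ± 0.20 in CD (0.64 ± 0.15, adjusted p = 0.00819) and from 6.89 ± 0.29 to 7.62 ± 0.24 in HFD (0.74 ± 0.15, adjusted p = 0.00398). Vldlr, a lipoprotein receptor, fell with IMQ in CD from 4.99 ± 0.26 to 3.79 ± 0.50 (-1.21 ± 0.23, 2.31-fold lower, adjusted p = 0.00146). In HFD its difference was -0.17, and the interaction term of 1.04 was not called (adjusted p = 0.123). Npc2, which hands cholesterol out of the lysosome, rose with IMQ in HFD (0.38 ± 0.11, adjusted p = 0.0351). The call of Npc2 was lost without HFD-vehicle 2, 3 or 4 or HFD-IMQ 1, 2, 4 or 5 (adjusted p up to 0.105), and after a further quantile normalisation (0.0746). In the diet comparisons 0 of the 8 were called by limma, with 2 of 8 under vehicle and 0 of 8 under IMQ at an unadjusted p below 0.05. Under IMQ all 8 diet differences were above 0 (median 0.18). The interaction was called for 0 of 8 by limma, with 3 of 8 at an unadjusted p below 0.05 (15.9% of all genes). All 8 terms were above 0, with a median of 0.27, and they share the same arrays.

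Sterol efflux, esters and oxysterols, and cholesterol sulfate were followed as separate lists. Abcg1, a sterol exporter and target of the liver X receptors, rose with IMQ in CD from 4.77 ± 0.33 to 5.72 ± 0.16 (0.95 ± 0.15, 1.93-fold, adjusted p = 0.000237). In HFD it rose from 5.16 ± 0.24 to 5.97 ± 0.25 (0.81 ± 0.15, adjusted p = 0.00148). It was the only 1 of 7 measured efflux and liver X receptor genes to be called. Cyp27a1, which makes an oxysterol, was the only 1 of 5 ester and oxysterol genes called, and rose with IMQ in HFD (0.61 ± 0.13, adjusted p = 0.00491). Sult2b1, which makes the cholesterol sulfate of the epidermis and was the 1 measured gene of 2 listed, rose with IMQ in CD (0.96 ± 0.24, adjusted p = 0.0114). Its difference in HFD was 0.24 and its interaction term -0.72 (adjusted p = 0.305). The calls of these 3 genes held in 20 of 20 fits that left out 1 array.

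Side branches of the mevalonate arm that lead to ubiquinone, dolichol and prenylated proteins gave 0 calls among 6 measured genes in all 5 contrasts by limma. The smallest p-values were those of Pdss2, a ubiquinone side chain enzyme, for diet under vehicle (-0.42 ± 0.14, unadjusted p = 0.00531, adjusted p = 0.113), and of Pggt1b, a prenyltransferase subunit, for diet under IMQ (0.30 ± 0.11, unadjusted p = 0.00929, adjusted p = 0.359). At an unadjusted p below 0.05 the counts were 1, 0, 1, 1 and 1 of 6.

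Fatty acid synthesis genes are the other classical SREBP targets. Of 11 measured, 4 were called lower in HFD against CD under vehicle and 0 higher. Of the 6 members 0 were called there, where 2.18% of all genes were. Fasn, the fatty acid synthase, went from 10.45 ± 0.58 in CD-vehicle to 8.59 ± 0.24 in HFD-vehicle (-1.85 ± 0.44, 3.61-fold lower, adjusted p = 0.0277). Acaca, acetyl-CoA carboxylase, fell by 1.64 (adjusted p = 0.0277), Acss2, which makes acetyl-CoA from acetate, by 1.38 (adjusted p = 0.0344), and Me1, malic enzyme, by 1.21 (adjusted p = 0.047). The calls of Fasn and Acaca were lost without CD-vehicle 3, 4 or 5 or HFD-vehicle 1, 3 or 4 (adjusted p up to 0.0853 and 0.0939). That of Acss2 was lost without CD-vehicle 3, 4 or 5 or any 1 HFD-vehicle array (up to 0.10), and that of Me1 in 14 of 20 fits (up to 0.131). With a trended and robust eBayes all 4 calls were lost (adjusted p 0.0699 for Fasn, 0.0657 for Acaca, 0.0707 for Acss2 and 0.0831 for Me1). The median of the 11 genes was -0.45 under vehicle and -0.78 under IMQ. Under vehicle 2 of 11 were above 0, with Fads2 highest at 0.53 (adjusted p = 0.119). The 6 cholesterol synthesis genes had medians of 0.25 and -0.22. Without CD-vehicle 3 their median under vehicle was 0.039, with 3 of 6 below 0. The median of the 11 was not computed without that array.

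With IMQ, Scd3, a stearoyl-CoA desaturase, fell in both diets, by 2.16 in CD (adjusted p = 0.000189) and by 2.64 in HFD (adjusted p = 2.26e-05), and its call held in all fits that left out 1 array. In HFD, Elovl6, a fatty acid elongase, fell by 1.14 (adjusted p = 0.00424), Fads2, a fatty acid desaturase, by 1.11 (adjusted p = 0.000214) and Scd1 by 0.94 (adjusted p = 0.0288). The call of Scd1 was lost without HFD-vehicle 1, 2, 4 or 5 or HFD-IMQ 1, 3 or 5 (adjusted p up to 0.106) and with only the groups compared (0.0945). So with IMQ 1 of 11 fatty acid synthesis genes was called lower in CD and 4 of 11 in HFD, and 0 higher. Over all genes 10.9% and 5.89% were called in either direction. In CD the differences of Elovl6, -0.45, Scd1, -0.48, and Fads2, -0.17, were not called. The interaction was called by limma for 0 of the 11 (Fads2 adjusted p = 0.0737). These counts therefore do not show that the response differed between diets.

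**Figure D3:**
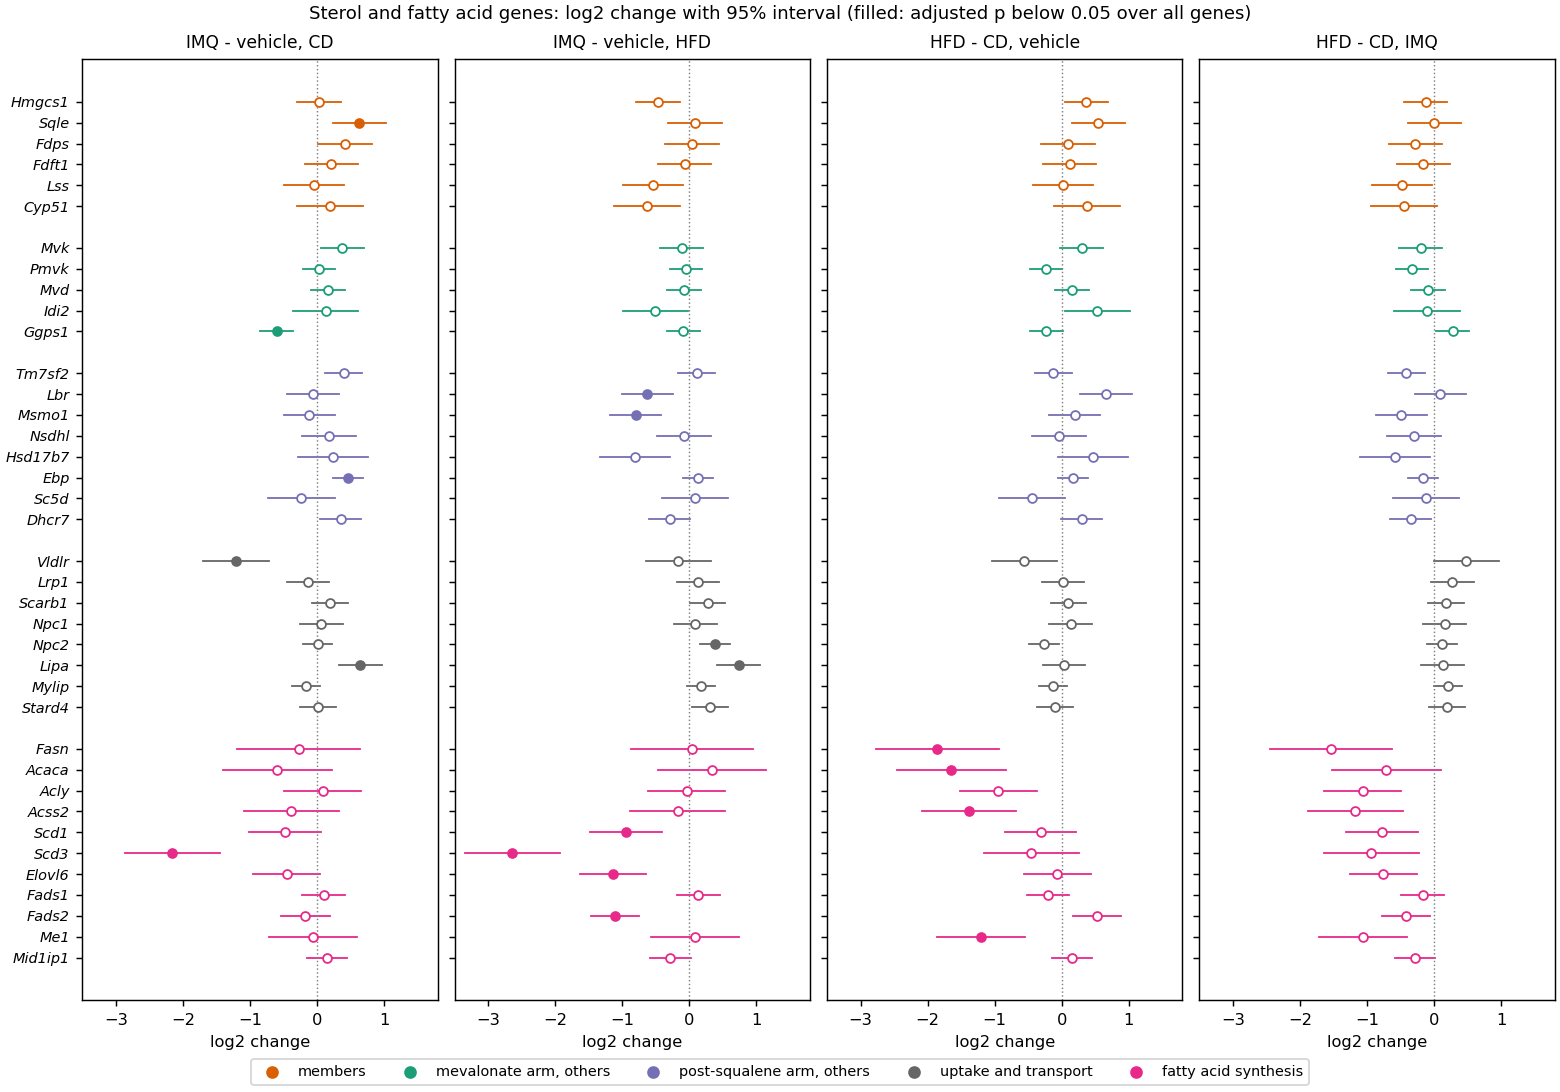
Log2 change with its 95% interval (x axis) for the measured members, other synthesis genes, uptake and transport genes and fatty acid synthesis genes (y axis) in the 4 group comparisons; filled points have an adjusted p below 0.05 over all genes. In HFD against CD under vehicle, Fasn, Acaca, Acss2 and Me1 are filled on the left, between -1.85 and -1.21, while the members lie at or right of 0.

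Markers of other cell types and of skin appendages were compared on the same arrays. Bulk skin RNA cannot tell fewer cells of a type from less RNA per cell. All 8 sebaceous gland markers were measured, and their mean log2 level ran from 6.15 to 8.05 in CD-vehicle, 7.31 to 7.93 in CD-IMQ, 7.46 to 8.43 in HFD-vehicle and 6.56 to 7.80 in HFD-IMQ. With IMQ 2 of 8 rose and 0 fell in CD, and 0 rose and 3 fell in HFD, with median changes of 0.41 and -1.01. No marker of this list was called by limma in the diet comparisons or the interaction, where 4, 3 and 6 of 8 had an unadjusted p below 0.05 and the medians were 0.60, -0.51 and -1.14. The medians of this list had the sign of the members' medians in all 5 contrasts over the 20 arrays, as did those of the cell cycle genes, and its part in the members' results was not tested.

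Hair shaft and inner root sheath markers, 8 of 8 measured, had a mean level of 2.80 to 5.65 in CD-vehicle, 2.79 to 3.16 in CD-IMQ, 6.64 to 9.54 in HFD-vehicle and 2.64 to 4.27 in HFD-IMQ. In HFD against CD under vehicle 7 of 8 rose, and with IMQ 4 fell in CD and 7 fell in HFD. For 7 measured adipocyte markers the range was 7.27 to 8.75, 6.55 to 8.21, 7.22 to 8.18 and 6.57 to 8.62 in the same order, with 2 lower in CD and 1 lower in HFD with IMQ. Neutrophil and macrophage markers rose with IMQ in 5 of 6 in CD and 6 of 6 in HFD. Of 6 suprabasal keratinocyte markers, 4 rose and 1 fell in CD and 1 rose and 1 fell in HFD. For 5 basal keratinocyte markers the counts were 1 and 1 in CD and 2 and 1 in HFD. Of 5 cell cycle genes 2 rose in CD and 0 were called in HFD, where 2 had an unadjusted p below 0.05. Skeletal muscle markers had 0 of 6 called in CD by limma, 3 with an unadjusted p below 0.05, and 1 lower in HFD. Hepatocyte markers had 0 of 4 called by limma, with 2 and 0 at an unadjusted p below 0.05. In HFD against CD under vehicle 1 of 5 cell cycle genes rose, with 5 of 5 at an unadjusted p below 0.05 and a median of 0.73, and 1 basal and 1 suprabasal keratinocyte marker rose. In the interaction 3 of 8 hair markers were called lower (median -3.29) and 1 of 5 cell cycle genes (5 of 5 below 0, median -0.75). The suprabasal markers had 0 called by limma, 3 of 6 at an unadjusted p below 0.05 and 6 of 6 below 0 (median -0.61), and the adipocyte markers 0 called, 0 at an unadjusted p below 0.05 and 7 of 7 above 0. The part of these lists in the members' results, the 6 interaction terms below 0 included, was not tested.

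The mean of the 6 members, each centred and scaled over the 20 arrays, gave 1 level per mouse, from -2.18 in CD-vehicle 3 to 1.30 in CD-IMQ 1. Over 20 arrays it correlated with the mean of the 8 other post-squalene genes (r = 0.89, rho = 0.92). Without the 2 arrays in which that list was farthest from its own median, r was 0.83. The correlation of the members' level with the sebaceous marker mean was close in size (r = 0.87, rho = 0.88, and 0.85 with group means subtracted). It was 0.84 without the 2 arrays farthest from the sebaceous median. With the other mevalonate genes r was 0.66 (rho = 0.61, and 0.56 without the 2 arrays farthest from that list's median). The 2 arrays were chosen for each list separately and can differ between lists. The ester and oxysterol genes ran the other way (r = -0.56, rho = -0.54, and -0.69 with group means subtracted). Sult2b1 (r = 0.58) and the sensing machinery (r = 0.49) had positive coefficients. The adipocyte markers (r = -0.21, rho = -0.14) and the fatty acid synthesis genes (r = 0.20, rho = 0.29) had smaller coefficients. So had the side branches (r = 0.30), uptake and transport (r = -0.12) and the efflux and liver X receptor genes (r = -0.11). Other skin lists were between: suprabasal keratinocyte markers (r = 0.71, rho = 0.43), basal keratinocyte markers (r = 0.71, rho = 0.52), cell cycle genes (r = 0.54, rho = 0.32) and hair markers (r = 0.37, rho = 0.41). With group means subtracted these were 0.77, 0.72, 0.47 and 0.55. Without CD-vehicle 3, and with group means kept, the correlations were 0.87 for the post-squalene genes, 0.80 for the sebaceous markers, 0.46 for the suprabasal and 0.50 for the basal keratinocyte markers, 0.20 for the cell cycle genes and 0.44 for the fatty acid synthesis genes. These are descriptions over arrays that share their group's treatment.

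**Figure D4:**
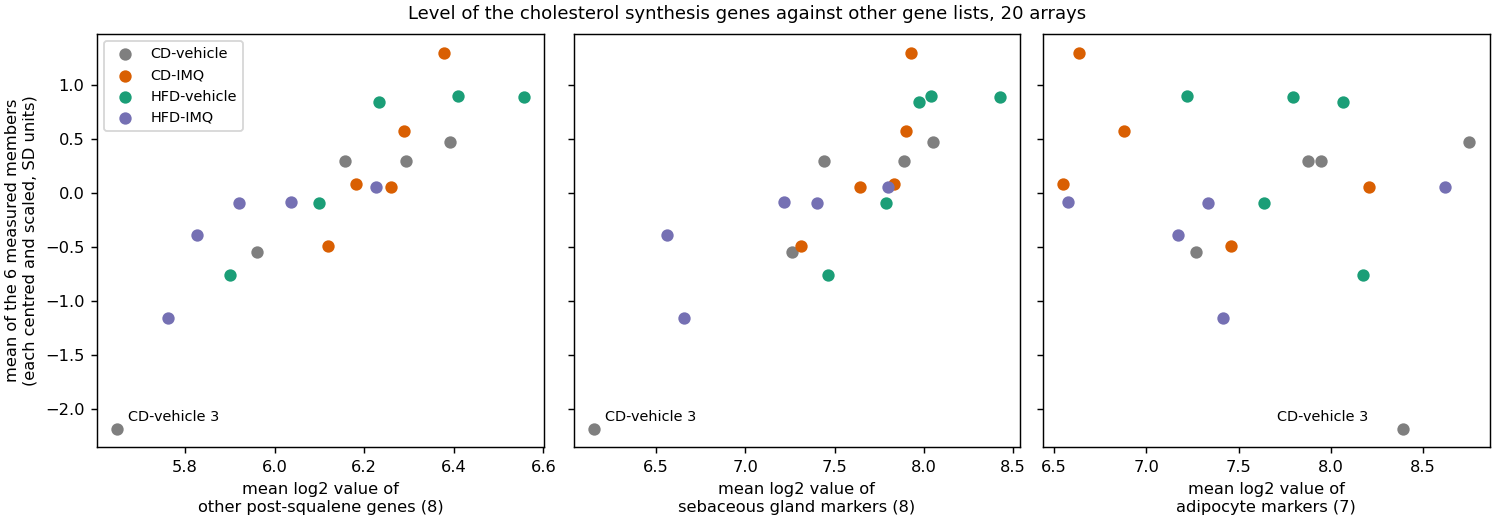
Mean of the 6 measured members, each centred and scaled over the 20 arrays (y axis, SD units), against the mean log2 value of 8 other post-squalene genes, 8 sebaceous gland markers and 7 adipocyte markers (x axes); each point is 1 array, coloured by group. The points rise together in the first and second panels (r = 0.89 and 0.87) with CD-vehicle 3 at the lower left, and show no such trend in the third (r = -0.21).

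Among 11084 genes with a mean above the median of all genes, the 10 most like the members' level over the 20 arrays were Acer1, Cyp4f39, Psapl1, Aldh3b2, Adtrp, Rdh12, Ly6g6c, Susd2, Slc27a4 and Krt79, with r from 0.93 to 0.88. Acer1 encodes an alkaline ceramidase, Slc27a4 a fatty acid transporter, and Krt79 a keratin of the sebaceous duct that is also on the sebaceous list. After subtraction of group means the 10 were Oas1f, Acsl5, Acer1, Cyp4f39, Msmo1, Aldh3b2, Cyp2b10, Pou2f3, Rdh12 and Tmem97, with r from 0.94 to 0.89. Both sets held 4 genes in common, Acer1, Aldh3b2, Cyp4f39 and Rdh12. Msmo1, the sterol methyl oxidase, was the only listed synthesis gene among them. Without CD-vehicle 3, r was 0.88 for Acer1 and 0.78 for Krt79 over the arrays.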

How the data were processed

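The values that the authors deposited are log2 intensities made with RMA in affy, per the submitters' processing notes, which give no versions. That the scale is log2 was read from the values. RMA brings arrays to a common distribution, so a shift shared by most genes would not be seen. RNA (300 ng, per the labels) came from bulk skin, and no source used here gives scan batches.

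Of 41345 features 23521 carried 1 gene symbol, 1814 several and 16010 none. Each of 22180 genes was read from its brightest feature of 1 symbol. A linear model with 1 mean per group over all 20 arrays was run in limma 3.58.1 and R 4.3.3 (eBayes, 5 contrasts, Benjamini-Hochberg adjustment over all genes), with no filter on dim genes. Tables used Python 3.11.15. The replicate is the mouse. The labels do not say that mice with the same number in different groups were paired. The residuals of 4 of 30 such array pairs correlated above 0.1 (-0.217 to 0.32). These values were not set beside those of other pairs, so they cannot exclude a shared batch. No arrays held identical values.

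The members, gene lists and tests were chosen with earlier results of these data known. Named genes were the members, the genes of each pathway list called in a contrast (or, where a list had no call, the 2 with the smallest p), and the 10 most like the members' mean, with and without group means. Hsd17b7, Srebf2 and Insig1 were added after their values were seen. Alternatives were a further quantile normalisation, median centring, dim genes left out, the mean of a gene's features, a trended and robust eBayes, array weights, only the groups compared, the replicate block, and each array left out. The test was tried on a simulation of 22180 genes in which 200 changed. For IMQ in CD it found 35.3% of log2 changes of 0.5 and 89.4% of changes of 1, for IMQ in HFD 39.7% and 84.8%, and for the interaction 11.8% and 77.3%. Its noise was drawn independently for each gene. In the data 2424 genes were called for IMQ in CD, 1306 for IMQ in HFD and 147 for the interaction. The p needed for a call therefore differed from that in the simulation, and these rates are only a rough guide. The number of arrays limits the precision.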

Additional observations from a re-analysis of the deposited data

Results flagged for a closer look

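Within the 24 combinations of a measured member and a group, 1 held an array far from the other 4. Fdft1 read 7.07 in HFD-IMQ 4, against 6.49 in the nearest HFD-IMQ array. The gap was 0.819 of the group's whole range, above Dixon's 95% critical value of 0.71 for 5 samples. Chance marks about 1 in 20 groups this way, so 1 of 24 is near that rate. HFD-IMQ 4 also had the highest mean adipocyte marker level of its group, 8.62 against 6.57 to 7.42 in the other 4 arrays, and the part of that in the Fdft1 value was not tested.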

How the results depend on the processing

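Over 834 combinations of a member's result and an alternative, 822 kept their side of the threshold and their direction if called, 12 changed side and 0 called values turned; 31 uncalled values turned sign. The number of members called for IMQ in CD, 1, was 0 with only the 2 groups compared and 0 with the replicate block (Sqle adjusted p = 0.0572), and 0 to 1 when each array was left out. For IMQ in HFD, 0, it was 1 after a further quantile normalisation (Hmgcs1), 2 with only the 2 groups compared, and 0 to 1 when each array was left out. The cause was not tested. The replicate block changed no other member's call and ended those of Lbr, Npc2, Acss2 and Me1 among the other pathway genes. Residuals of same-number arrays correlated between -0.217 and 0.32, and whether such mice shared a batch is not known.

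Over all genes, HFD against CD under vehicle gave 483 calls, 137 with only those groups and 231 to 574 with an array left out. The interaction gave 147 calls, 99 after quantile normalisation, 241 without dim genes and 57 to 198 with an array left out. HFD against CD under IMQ gave 0, or 1 after median centring, without dim genes, with the mean of features or with a trended eBayes, and 0 to 20 with an array left out. Among the 23 calls of other pathway genes, 83 of 644 recomputed values lost the threshold and 0 turned. With 5 mice a group, member changes of the size seen were often below what the simulation recovered, so a missing call does not show that a gene did not change.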
